A study of Mus musculus with 12 samples.

Results

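Across 18784 measured mouse genes, the 9 described here showed the largest rises when Jarid1b was knocked down in embryonic stem cells (ESC). They are Arl14epl, Slc13a5, Crtac1, Calb2, Pmel, Slfn9, Glod5, Klk1 and Pcsk1n, and each is measured by 1 probe set. They were chosen by the log2 difference between Jarid1b shRNA and scrambled shRNA in ESC, so that difference is given below as a description, without a test. The smallest difference among the 9 was that of Pcsk1n (1.28). The next genes in the order, just outside the 9, were Scd1 (1.22), Xaf1 (1.21) and Stra8 (1.18), so no gap sets the 9 apart.

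The study used 12 expression arrays, 3 in each of 4 groups of mouse cells. These were neural progenitor cells (NPC) with Jarid1b shRNA, NPC with scrambled shRNA, ESC with Jarid1b shRNA and ESC with scrambled shRNA. The ESC were of the feeder-independent line E14TG2a.4, grown with LIF, and all groups carried a lentiviral shRNA vector and were selected with puromycin. Lentivirus was left on the cells for 16 h and selection began 48 h after transduction. NPC were generated from the ESC. Only 1 knockdown construct is named in the labels, and nothing there says whether the arrays of a group came from separate cultures. The spread between arrays that the p-values rest on may therefore be technical. All levels are log2 values after RMA, a method that corrects background and equalizes the arrays, so a difference of 1 is a 2-fold change.

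Jarid1b, now named Kdm5b, encodes an enzyme that takes methyl groups off lysine residue H3K4 of histone H3, a mark carried by the promoters of active genes. The 9 genes do not form a pathway. Slc13a5 encodes a sodium-coupled transporter that brings citrate into the cell. Crtac1, Klk1 and Pcsk1n encode secreted proteins, Calb2 and Slfn9 intracellular proteins, and Pmel the fibril-forming protein of the melanosome, the pigment organelle.

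Promoter sequences from RefSeq (build GRCm38.p6) were found for 5 of the 9 genes, and 3 are shown because they span the range of CpG content among them. Each line holds the 250 bases upstream of the first listed start site, 5′ to 3′ on the gene's strand, with every CpG dinucleotide in capitals. The windows are chr19:42431789-42432038 on the minus strand for Crtac1, chrX:7919572-7919821 on the plus strand for Pcsk1n and chr7:44225110-44225359 on the plus strand for Klk1.
Crtac1: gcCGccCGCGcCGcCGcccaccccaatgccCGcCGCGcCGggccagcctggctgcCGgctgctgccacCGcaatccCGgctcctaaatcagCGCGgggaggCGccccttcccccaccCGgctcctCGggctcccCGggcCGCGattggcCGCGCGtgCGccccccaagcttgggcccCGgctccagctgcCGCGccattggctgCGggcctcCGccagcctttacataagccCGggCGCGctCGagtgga
Pcsk1n: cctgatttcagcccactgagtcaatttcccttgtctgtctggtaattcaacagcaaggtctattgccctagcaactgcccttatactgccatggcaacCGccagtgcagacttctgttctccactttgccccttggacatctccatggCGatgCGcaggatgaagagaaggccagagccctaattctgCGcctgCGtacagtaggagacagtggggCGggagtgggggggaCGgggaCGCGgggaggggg
Klk1: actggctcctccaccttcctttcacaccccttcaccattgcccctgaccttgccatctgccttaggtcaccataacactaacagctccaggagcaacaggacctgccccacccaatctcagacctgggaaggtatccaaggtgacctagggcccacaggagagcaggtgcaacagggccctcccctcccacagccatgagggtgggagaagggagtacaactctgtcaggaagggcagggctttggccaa

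CpG dinucleotides are the substrate of DNA methylation and are dense in the promoters of many broadly expressed genes. The motif searched was CG, which reads the same on both strands. The Crtac1 window held 33 CpG, a number that 5.20% of the 15060 measured genes with a promoter sequence reached or exceeded. The first listed Slc13a5 window held 22, Pcsk1n 9, Slfn9 4 and Klk1 0. Over all 15060 genes the median was 11, the quartiles were 3 and 20, and 93.6% of windows held at least 1. The 5 genes thus ran from CpG-dense to CpG-free windows and shared no CpG class. For both genes with a second listed start site the second window held fewer CpG, 25 for Crtac1 and 13 for Slc13a5.

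The knockdown and the cell states were checked first. Kdm5b stood at 10.64, 10.90 and 10.50 in knockdown ESC, against 12.25, 12.47 and 12.50 in control ESC. In NPC it stood at 10.38, 10.48 and 10.54 with the Jarid1b shRNA, against 11.24, 11.15 and 11.30 with the scrambled one. The groups did not overlap in either state, and the change was -1.73 ± 0.11 in ESC (limma adjusted p = 1.82e-05) and -0.76 ± 0.11 in NPC (SE, limma adjusted p = 0.00524). All 16 pluripotent markers were lower and all 12 neural progenitor markers higher in NPC than in ESC (limma, mean over both constructs). Arrays of a group correlated at 0.992 to 0.997 across genes.

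In ESC all 9 genes were higher on every knockdown array than on every control array. Choosing genes by the size of their rise favours this without requiring it. Over all genes 10.6% had groups that did not overlap in that direction. The differences ran from 2.04 for Arl14epl (4.12-fold) to 1.28 for Pcsk1n (2.42-fold). In between came Slc13a5 (1.95), Crtac1 (1.68), Calb2 (1.57), Pmel (1.40), Slfn9 (1.29), Glod5 (1.29) and Klk1 (1.28).

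**Figure D1:**
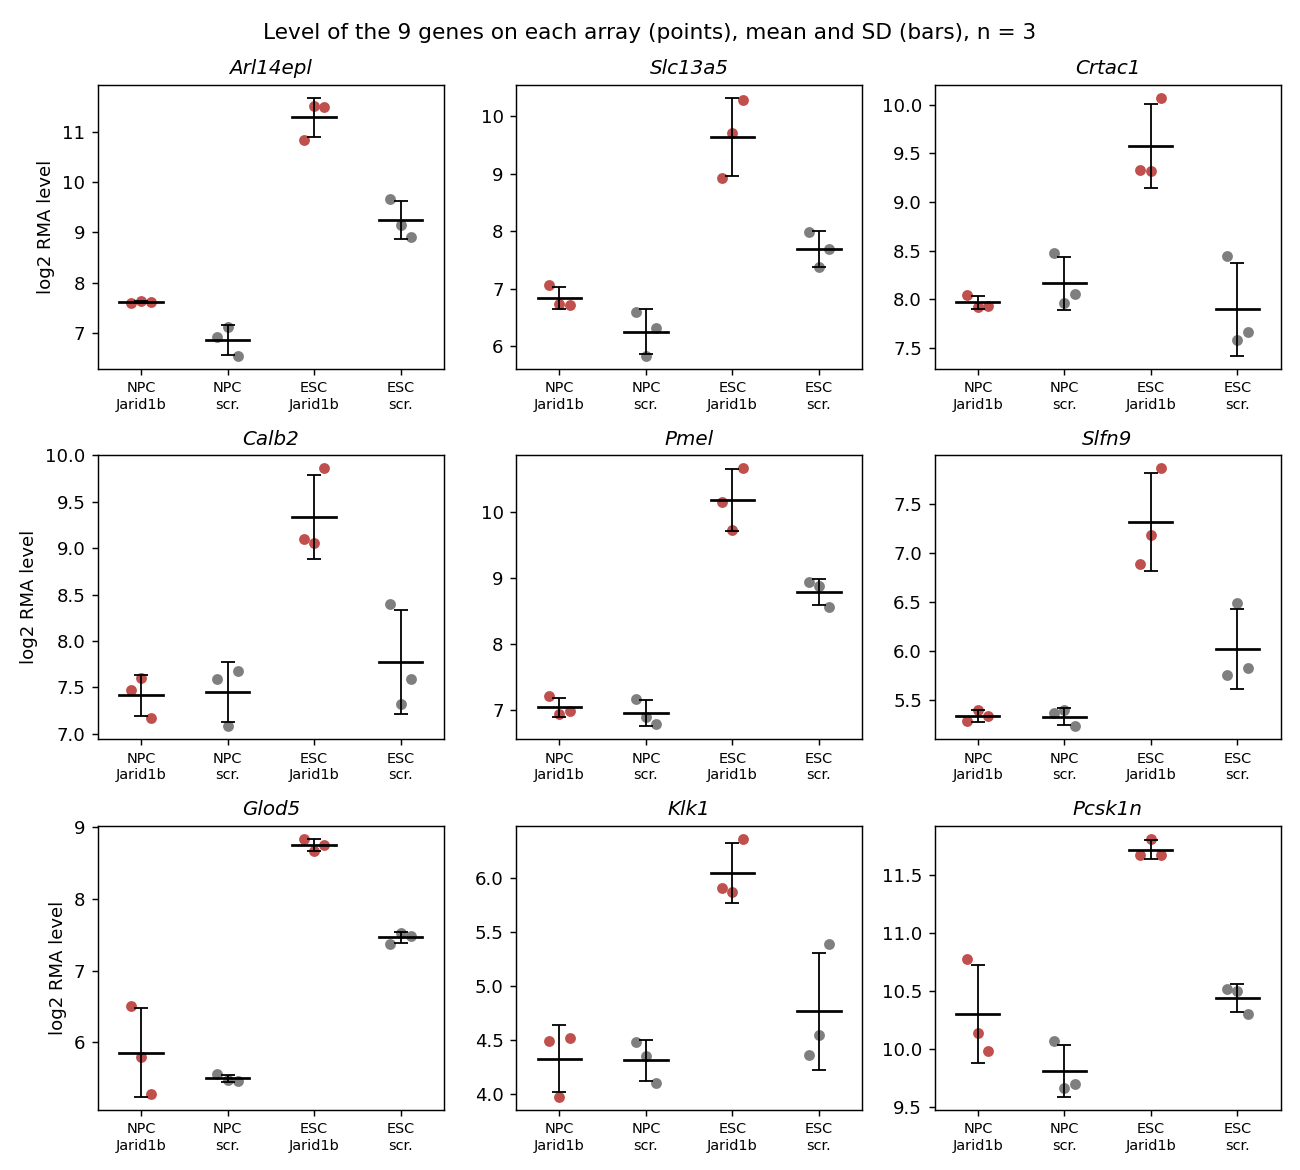
Log2 RMA level of each of the 9 genes on every array (points), with the group mean and SD (bars, n = 3). Columns are NPC with Jarid1b shRNA, NPC with scrambled shRNA, ESC with Jarid1b shRNA and ESC with scrambled shRNA, and the vertical scale differs between panels. For all 9 genes the 3 knockdown ESC arrays lie above the other 9 arrays.

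Arl14epl, a gene named for its likeness to an effector of the small GTPase ARL14, stood at 10.83, 11.52 and 11.50 in knockdown ESC, against 9.66, 9.15 and 8.91 in control ESC. In NPC it stood at 7.59, 7.63 and 7.60 with the knockdown, against 6.92, 7.11 and 6.54 in control NPC. The groups were apart in both states, and both NPC groups lay below both ESC groups. Arl14epl had the largest difference in ESC and also the largest of the 9 in NPC (0.75 ± 0.21, SE), where limma's adjusted p was 0.144.

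Slc13a5, the citrate transporter gene, stood at 8.92, 9.72 and 10.28 in knockdown ESC, against 7.99, 7.38 and 7.70 in control ESC. Its SD of 0.68 in knockdown ESC was the widest spread of any of the 9 genes in any group. In NPC it stood at 7.07, 6.74 and 6.72 with the knockdown, against 6.60, 5.83 and 6.32 in control NPC. Here too the knockdown arrays lay above the control arrays in both states, by 1.95 in ESC and by 0.59 ± 0.29 (SE) in NPC, where limma's adjusted p was 0.575. Without control NPC replicate 2 the NPC difference was 0.38.

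Glod5 encodes a protein with a glyoxalase domain. It stood at 8.84, 8.66 and 8.75 in knockdown ESC, against 7.37, 7.53 and 7.48 in control ESC. These were tight groups, with SDs of 0.087 and 0.080. In NPC it stood at 6.51, 5.79 and 5.28 with the knockdown, against 5.55, 5.47 and 5.47 in control NPC. All these NPC values but that of knockdown replicate 1 lay below the lower quartile of all genes on their array, near the floor. The knockdown NPC arrays straddled the control ones, with 2 above and 1 below, and the difference was 0.36 ± 0.21 (SE, limma adjusted p = 0.714). It was 0.036 without knockdown NPC replicate 1 and 0.65 without knockdown NPC replicate 3.

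The first of the genes of secreted proteins, Pcsk1n, encodes proSAAS, an inhibitor of the prohormone convertase made by Pcsk1. Its levels were 11.67, 11.81 and 11.66 in knockdown ESC, against 10.52, 10.50 and 10.30 in control ESC. In NPC they were 10.78, 10.14 and 9.98 with the knockdown, against 10.07, 9.67 and 9.70 in control NPC. The NPC groups overlapped, and the difference of 0.49 ± 0.17 (SE) had a limma adjusted p of 0.315. Without knockdown NPC replicate 1 it was 0.25 (limma adjusted p = 0.819).

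Crtac1 encodes an extracellular matrix protein that in neurons is also known as LOTUS, an antagonist of the Nogo receptor. Its levels were 9.33, 9.32 and 10.07 in knockdown ESC, against 8.44, 7.58 and 7.66 in control ESC. In NPC they were 8.04, 7.92 and 7.93 with the knockdown, against 8.48, 7.96 and 8.05 in control NPC. Crtac1 was the only one of the 9 whose mean was not lower in control NPC than in control ESC, and its NPC knockdown difference was -0.20 ± 0.24 (SE, limma adjusted p = 0.933).

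Klk1, the gene of tissue kallikrein, a protease that releases kinins, had levels of 5.90, 5.87 and 6.36 in knockdown ESC, against 4.37, 4.55 and 5.39 in control ESC. In NPC they were 4.50, 3.98 and 4.52 with the knockdown, against 4.48, 4.36 and 4.10 in control NPC. The lower quartile of all genes was 5.84 to 6.11 on the 12 arrays, so that the 9 values outside knockdown ESC lay below it. In knockdown ESC, replicates 1 and 2 also lay below the lower quartile of their own array, and only replicate 3 lay above it. The NPC groups overlapped, with a difference of 0.016 ± 0.24 (SE, limma adjusted p = 0.994).

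Calb2 encodes calretinin, a calcium-binding protein of certain neurons. Its levels were 9.10, 9.06 and 9.86 in knockdown ESC, against 8.40, 7.32 and 7.59 in control ESC. In NPC they were 7.47, 7.60 and 7.17 with the knockdown, against 7.59, 7.08 and 7.68 in control NPC. The NPC groups overlapped, with a difference of -0.031 ± 0.27 (SE, limma adjusted p = 0.991).

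Pmel stood at 10.16, 9.73 and 10.67 in knockdown ESC, against 8.94, 8.88 and 8.56 in control ESC. In NPC it stood at 7.21, 6.93 and 6.99 with the knockdown, against 7.17, 6.89 and 6.79 in control NPC. Every ESC array lay above every NPC array. The NPC groups overlapped, with a difference of 0.096 ± 0.20 (SE, limma adjusted p = 0.967).

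Slfn9 belongs to the Schlafen genes, which in mouse form a cluster of close relatives. It stood at 6.89, 7.19 and 7.87 in knockdown ESC, against 5.76, 6.50 and 5.82 in control ESC. In NPC all 6 arrays lay between 5.23 and 5.40, below the lower quartiles of the arrays, and the difference was 0.0077 ± 0.22 (SE, limma adjusted p = 0.996). Slfn9 and Klk1 were the 2 of the 9 genes left out by a filter that asked for values above the array median on at least 3 arrays. Glod5 passed it only through the knockdown ESC arrays. Slc13a5 and Calb2 passed through those arrays and control ESC replicate 1. For these genes, passing the filter therefore says little of their levels in the other groups.

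The 3 knockdown ESC arrays were not alike for these genes. Replicate 3 was the highest for 6 of the 9, namely Slc13a5, Crtac1, Calb2, Pmel, Slfn9 and Klk1. Among control ESC, replicate 1 was the highest for 6, namely Arl14epl, Slc13a5, Crtac1, Calb2, Pmel and Pcsk1n. Kdm5b stood at 10.50 on knockdown replicate 3 and at 12.25 on control replicate 1, the lowest value of its group in each case. Knockdown replicate 2 had the highest Kdm5b of its group (10.90). That array was the highest for Arl14epl and Pcsk1n and the lowest for 5 of the 9. A link between the Kdm5b level and these genes across arrays was not tested. Leaving out each array in turn moved the ESC difference between 1.63 and 2.31 for Slc13a5 and between 1.31 and 1.88 for Calb2, and only between 1.21 and 1.32 for Pcsk1n.

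Whether the same genes respond to the knockdown in NPC can be tested, because no NPC array entered the choice of the 9. None of the 9 passed limma's test in NPC in either direction, where 0.820% of all genes passed as higher and 0.213% as lower. At an unadjusted p under 0.05, 2 of the 9 were higher, Arl14epl and Pcsk1n, and 0 were lower, against 5.84% and 3.69% of all genes. The Pcsk1n value leaned on knockdown NPC replicate 1, as given above. The groups did not overlap for 2 of the 9, Arl14epl and Slc13a5, both higher with the knockdown, as for 8.30% of all genes, and for 0 were they apart in the other direction, as for 5.91% of all genes. The median difference of the 9 in NPC was 0.096, beside 0.0037 over all genes.

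The intervals give the NPC changes allowed by a spread estimated over all 12 arrays, so the spread among ESC arrays enters them. Slfn9 had SDs of 0.060 and 0.089 in knockdown and control NPC, against 0.50 and 0.41 in ESC. For Glod5 the widest SD was that of knockdown NPC (0.62). The 95% interval was 0.29 to 1.21 for Arl14epl, 0.11 to 0.86 for Pcsk1n, -0.032 to 1.21 for Slc13a5 and -0.10 to 0.82 for Glod5. For the other 5 genes the highest upper end was 0.56, that of Calb2. For all 9 the upper end lay below the gene's own ESC difference. That is a description, since the ESC differences were picked for their size, and the difference between the states was not tested for these genes. The Kdm5b difference itself was also smaller in NPC, as given above. Its mean was 10.47 in knockdown NPC and 10.68 in knockdown ESC, against 11.23 in control NPC and 12.41 in control ESC. The part of Kdm5b in the NPC values of the 9 genes was not tested.

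**Figure D2:**
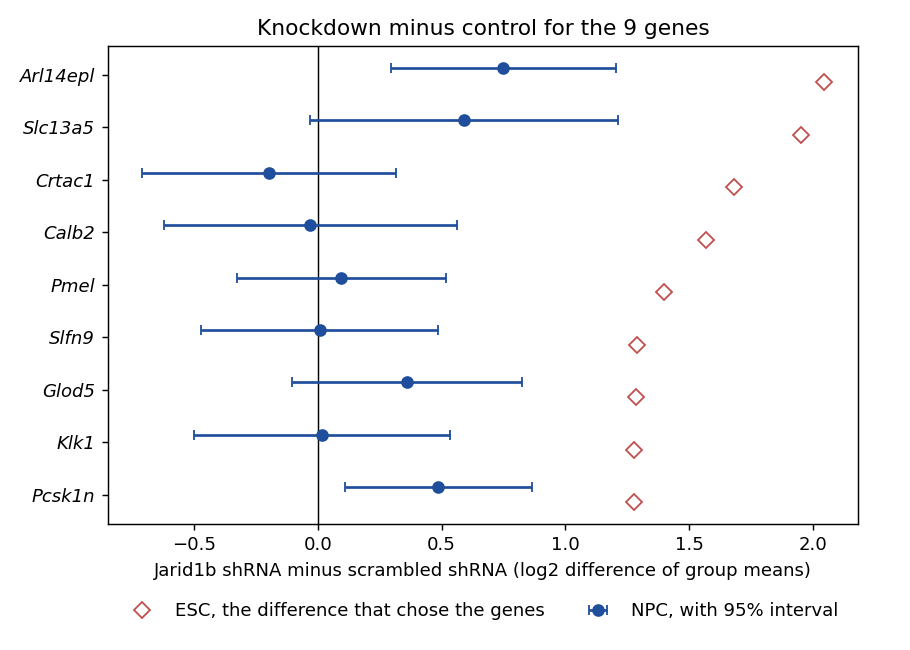
Log2 difference between Jarid1b and scrambled shRNA for the 9 genes, in NPC with its 95% interval (circles) and in ESC (open diamonds, the values that chose the genes, shown without an interval). The NPC values lie between -0.20 and 0.75, and every NPC interval ends below the ESC diamond of its gene.

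Markers of pluripotent and germ cells moved with the knockdown in NPC. The 16 pluripotent markers had a mean level of 7.05 to 7.77 on the knockdown NPC arrays and of 6.35 to 6.78 on the control NPC arrays, and 6 were higher and 0 lower by limma. The 10 germ cell markers stood at 7.67 to 8.37 with the knockdown and 5.99 to 6.54 in control NPC, with 8 higher and 0 lower. Knockdown NPC replicate 1, which had the highest pluripotent level (7.77), was the highest of its group for Slc13a5, Crtac1, Pmel, Glod5 and Pcsk1n. The same array was the lowest for Arl14epl and Slfn9. Control NPC replicate 1 had the lowest pluripotent level of its group (6.35). It was nonetheless the highest for 6 of the 9, namely the same 5 genes and Klk1. Endothelial markers were lower with the knockdown, at 6.53 to 6.87 against 7.32 to 8.18 in control NPC, with 0 higher and 5 lower of 10. The neuronal level was 9.66 to 9.72 with the knockdown and 9.83 to 9.94 in control NPC, the endoderm level 7.26 to 7.35 with the knockdown and 7.39 to 7.67 in control NPC, and the blood level 5.70 to 5.81 with the knockdown and 5.95 to 6.15 in control NPC. That of the 2 measured 2-cell-like markers was 6.20 to 7.51 with the knockdown and 5.21 to 5.64 in control NPC, without overlap, though neither gene passed limma's test. The part of these cell types in the NPC values of the 9 genes was not tested, and fewer cells of a type and less RNA per cell cannot be told apart in such samples. In ESC the pluripotent level was 11.75 to 11.79 with the knockdown and 11.65 to 11.67 in control cells, and that of the germ cell markers 8.40 to 8.78 with the knockdown and 8.11 to 8.25 in control cells, with 1 of 16 and 2 of 10 higher and 0 lower in either list. Levels of 4 other lists were lower in knockdown ESC without overlap, among them the neural crest list given below with Pmel. The trophoblast level was 7.28 to 7.52 with the knockdown and 7.63 to 8.21 in control ESC, with 2 of 10 markers lower by limma. The neuronal level was 7.82 to 8.01 with the knockdown and 8.07 to 8.23 in control ESC, with 4 of 14 lower. The neural progenitor level was 8.54 to 8.68 with the knockdown and 8.72 to 8.89 in control ESC, with 3 of 12 lower and 1 higher. Their part in the ESC values of the 9 genes was not tested.

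From the stem cell to the progenitor state most of the 9 genes were lower. In control cells, NPC minus ESC was -2.38 for Arl14epl, -1.96 for Glod5, -1.84 for Pmel and -1.44 for Slc13a5, and between -0.69 and -0.32 for Slfn9, Pcsk1n, Klk1 and Calb2. Crtac1 was at 0.27. Every control NPC array lay below every control ESC array for 6 of the 9 genes, and for Crtac1, Calb2 and Klk1 the groups overlapped. In knockdown cells the NPC arrays lay below the ESC arrays for all 9, with differences of -1.41 for Pcsk1n to -3.68 for Arl14epl. These differences share ESC arrays with the choice of the genes and carry no test. The share of all genes with such a separation of the states was not counted, so the counts cannot be read as a trait of the 9. Lower levels in NPC were common, called by limma for 31.1% of all genes with both constructs averaged.

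**Figure D3:**
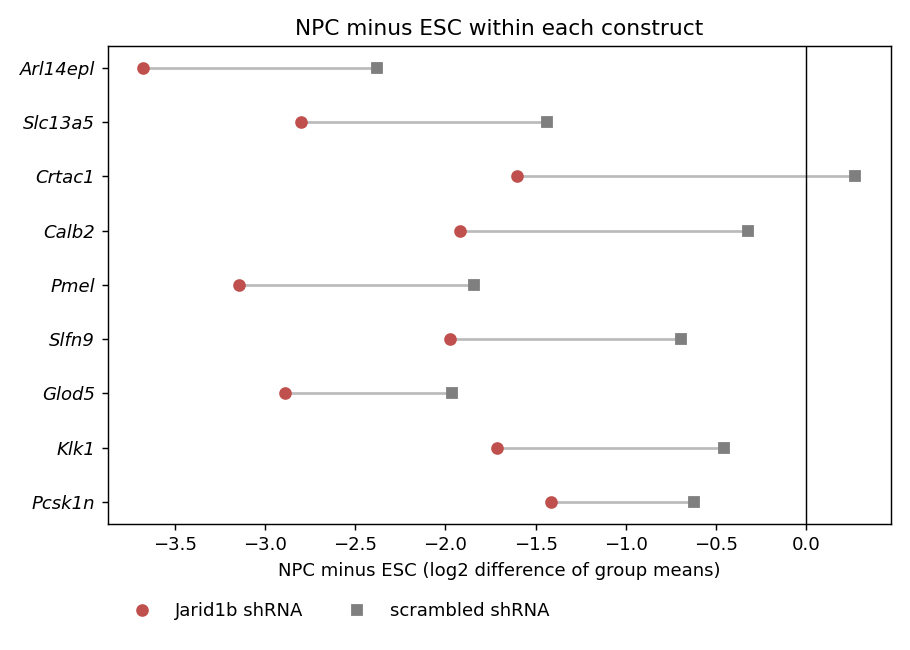
Log2 difference, NPC minus ESC, for the 9 genes within Jarid1b shRNA cells (circles) and within scrambled shRNA cells (squares). All 9 circles lie left of 0, and all squares but that of Crtac1 (0.27).

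With both constructs averaged, all 9 were lower in NPC by limma, as 31.1% of all genes were, and 0 were higher, against 27.3%. The ESC knockdown difference enters that average by construction, so the 9 calls were not read as a result. For Crtac1 the averaged difference was -0.67 ± 0.17 (SE), while control cells alone gave 0.27. The order of the 3 groups other than knockdown ESC was not the same for every gene. Control ESC lay above knockdown NPC without overlap for 5 of the 9, a separation that was not counted over all genes. The Crtac1 means were 7.97 in knockdown NPC, 8.16 in control NPC and 7.89 in control ESC.

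Relatives and functional partners of the 9 genes were examined to see whether they moved too. The lists were drawn up with earlier results of these data known, so the counts are a description and not independent evidence. Of 117 such genes, 8 were higher and 2 lower in knockdown ESC by limma, beside 1.84% and 3.37% of all genes. Scd1, among the 8, was the next gene below the 9 in the order of rises. The median difference of the 117 was 0.074, beside 0.017 over all genes. In NPC 0 were higher and 0 lower by limma, and at an unadjusted p under 0.05 the counts were 9 (7.69%) and 4 (3.42%), beside 5.84% and 3.69% of all genes. By that unadjusted measure the ESC counts were 17 (14.5%) and 6 (5.13%), beside 7.99% and 11.2% of all genes. The ESC count of 8 was 2 without control ESC replicate 2 or knockdown ESC replicate 3, and 3 without control ESC replicate 3. It was 4 without knockdown ESC replicate 1 or knockdown NPC replicate 1 or 3, and 5 without knockdown ESC replicate 2 or knockdown NPC replicate 2. The count of 2 lower genes was 0 without control ESC replicate 3 or any 1 knockdown ESC array, and 1 without control ESC replicate 1 or 2 or knockdown NPC replicate 3.

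**Figure D4:**
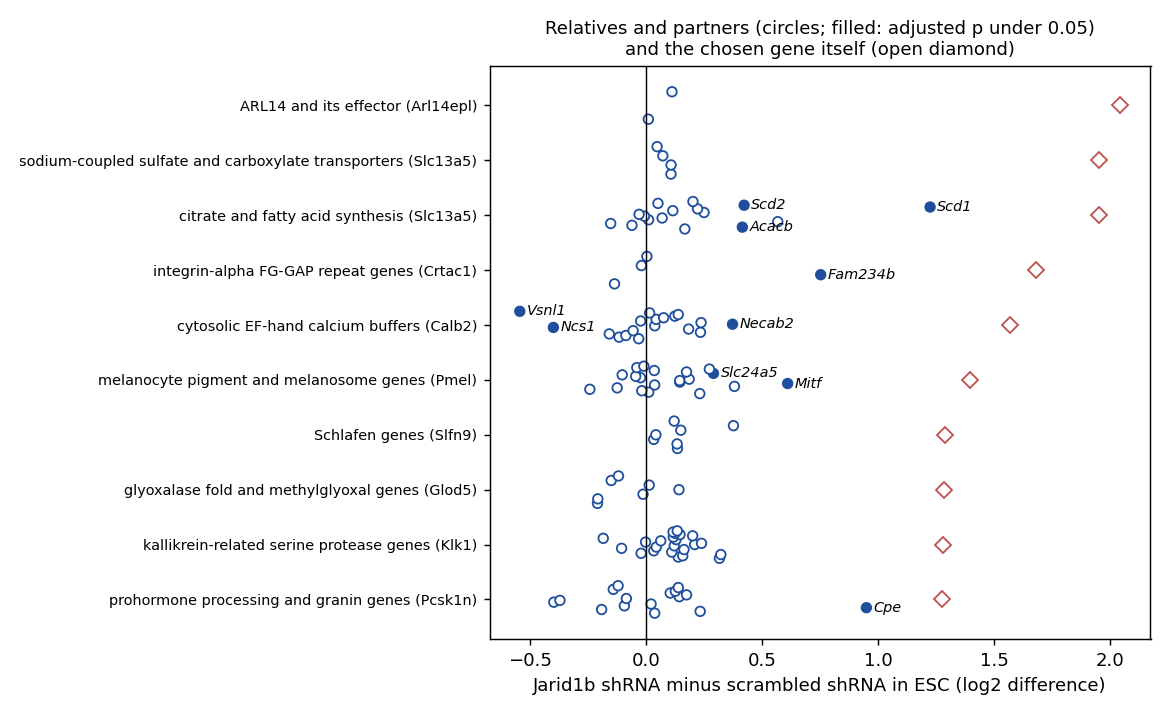
Log2 difference between Jarid1b and scrambled shRNA in ESC for relatives and partners of each chosen gene (circles, filled where limma's adjusted p was under 0.05) and for the chosen gene itself (open diamonds). Within each list the chosen gene lies to the right of all the others, as its choice as one of the 9 largest rises requires.

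Among 16 genes of citrate use and fatty acid synthesis, the partners of Slc13a5, 3 rose and 0 fell in knockdown ESC. The desaturase gene Scd1 stood at 11.66, 11.58 and 11.82 with the knockdown, against 10.82, 10.31 and 10.25 in control ESC, a rise of 1.22 ± 0.17 (SE, limma adjusted p = 0.00318). Scd2, a close relative, rose by 0.42 ± 0.083 (SE, limma adjusted p = 0.0134), and Acacb, which encodes an acetyl-CoA carboxylase, by 0.42 ± 0.11 (SE, limma adjusted p = 0.0494). Scd1 kept its call without each of the 12 arrays. Scd2 lost it without knockdown ESC replicate 3 (adjusted p = 0.0664), and Acacb lost it in 9 of the 12 cases. None of the 4 other Slc13 transporter genes passed in ESC.

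Of 16 genes of prohormone processing and granins, the partners of Pcsk1n, 1 rose and 0 fell in knockdown ESC. This was Cpe, whose product carboxypeptidase E trims peptides after the convertases have cut them. Cpe stood at 7.17, 7.31 and 8.03 with the knockdown, against 6.60, 6.31 and 6.76 in control ESC, a rise of 0.95 ± 0.19 (SE, limma adjusted p = 0.0150). Cpe no longer passed when control ESC replicate 2 was left out (adjusted p = 0.0542). Cpe had means of 9.79 in knockdown NPC and 9.85 in control NPC, above its ESC means of 7.50 and 6.55.

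Of 20 pigment cell genes listed with Pmel, 2 rose and 0 fell in knockdown ESC. Mitf, a transcription factor of the melanocyte lineage known to act on Pmel in pigment cells, stood at 9.71, 9.28 and 10.02 with the knockdown, against 9.14, 9.03 and 9.01 in control ESC. Its rise was 0.61 ± 0.16 (SE, limma adjusted p = 0.0438). The pigment exchanger gene Slc24a5 rose by 0.29 ± 0.077 (SE, limma adjusted p = 0.0477), at levels below the lower quartiles of the arrays. Without single arrays Mitf lost its call in 8 of 12 cases and Slc24a5 in 9. The median of the 20 genes was 0.038. Markers of the neural crest, from which melanocytes arise, had 0 higher and 1 lower of 8 in ESC, and their level was 7.56 to 7.71 with the knockdown and 7.77 to 7.84 in control cells. Their part in the Pmel values was not tested.

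Among 18 relatives and functional kin of Calb2 that bind calcium, 1 rose and 2 fell in knockdown ESC. Necab2 rose by 0.37 ± 0.10 (SE, limma adjusted p = 0.0494), while the neuronal calcium sensor genes Vsnl1 and Ncs1 fell, with changes of -0.54 ± 0.13 (SE, limma adjusted p = 0.0357) and -0.40 ± 0.092 (SE, limma adjusted p = 0.0266). Without single arrays these calls were lost in 9, 7 and 4 of 12 cases. For Crtac1, 1 of 4 genes with FG-GAP repeats rose, Fam234b, by 0.75 ± 0.16 (SE, limma adjusted p = 0.0212). It lost the call without control ESC replicate 2 or 3 or knockdown ESC replicate 2 or 3 (adjusted p 0.0618 to 0.0933). These genes were listed for kinship, calcium binding or FG-GAP repeats, with earlier results of these data known. A shared function with Calb2 or Crtac1 in ESC was not tested.

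The close families of Klk1 and Slfn9 matter for a second reason, since near-identical genes can share probe signal. Of 23 other kallikrein genes 0 rose and 0 fell in knockdown ESC, with a median difference of 0.126, beside 0.017 over all genes. The Klk1b genes, the nearest relatives of Klk1, ranged from -0.18 for Klk1b9 to 0.24 for Klk1b26. Of 7 other Schlafen genes 0 rose and 0 fell, with a median difference of 0.135. The nearest to a call was Slfn8 (0.38 ± 0.12, SE, limma adjusted p = 0.0804), the gene next to Slfn9, and the probes of the 2 genes could not be checked for shared sequence. No call was made in ESC among 7 genes of glyoxalase fold or methylglyoxal handling listed with Glod5, or for Arl14 and Arl14ep, listed with Arl14epl.

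The genes beside the 9 on the chromosome were taken from the RefSeq gene order, 2 measured genes on each side. Of these 35 genes, 3 rose and 1 fell in knockdown ESC by limma, beside 1.84% and 3.37% of all genes. In NPC 0 rose and 0 fell, with 3 (8.57%) and 1 (2.86%) at an unadjusted p under 0.05, beside 5.84% and 3.69% of all genes. By that unadjusted measure 6 (17.1%) were higher and 2 (5.71%) lower in ESC, beside 7.99% and 11.2% of all genes. The ESC count of 3 was 1 without control ESC replicate 3, knockdown ESC replicate 2 or 3, or knockdown NPC replicate 3.

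**Figure D5:**
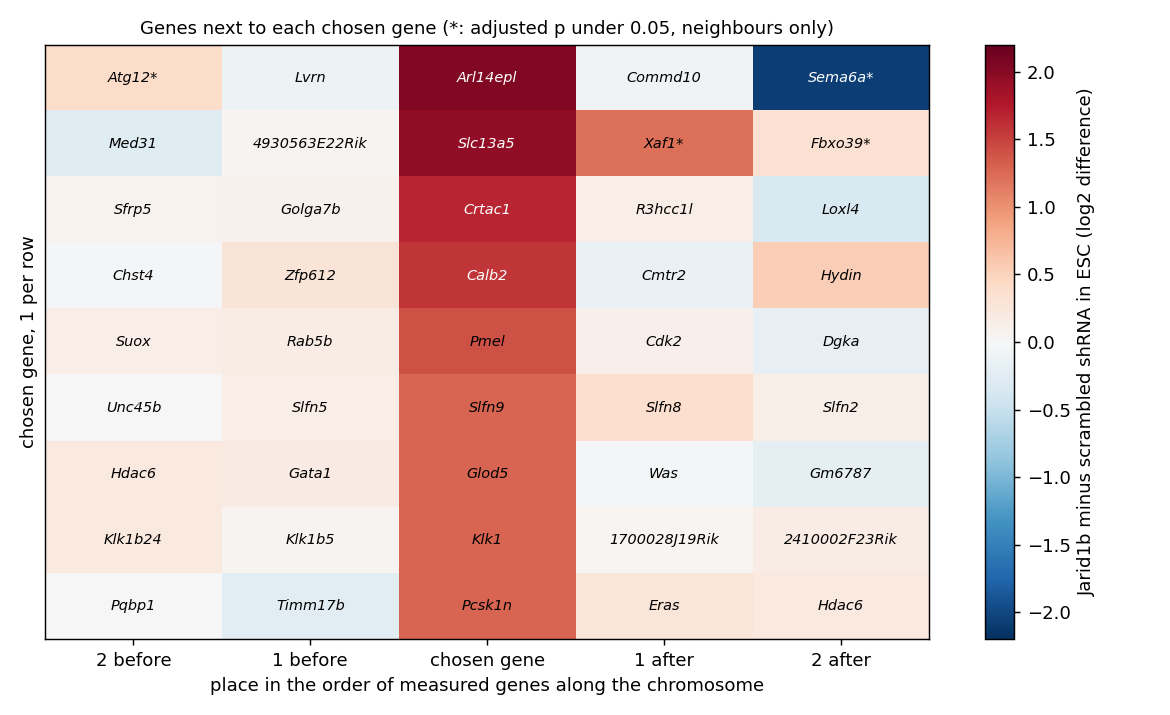
Log2 difference between Jarid1b and scrambled shRNA in ESC (colour) for each chosen gene (middle column) and the 2 measured genes before and after it in chromosome order. Asterisks mark neighbours with a limma adjusted p under 0.05. Xaf1 (1.21) beside Slc13a5 and Sema6a (-2.07) near Arl14epl stand out from the pale cells around them.

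Xaf1, next to Slc13a5, was itself the 11th in the order of rises. Its product binds the apoptosis inhibitor XIAP. Xaf1 stood at 8.24, 8.58 and 8.86 in knockdown ESC, against 7.46, 7.41 and 7.19 in control ESC, a rise of 1.21 ± 0.17 (SE, limma adjusted p = 0.00312). Fbxo39, 1 place further on, rose by 0.33 ± 0.084 (SE, limma adjusted p = 0.0384). In NPC neither passed limma's test. Xaf1 stood at 6.10, 6.20 and 6.48 with the knockdown, against 6.30, 6.45 and 5.94 in control NPC, and the groups overlapped.

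Arl14epl had neighbours that moved both ways. Sema6a, a guidance gene of the semaphorin family 2 places after it, stood at 7.61, 7.82 and 6.93 in knockdown ESC, against 9.16, 9.49 and 9.91 in control ESC. It fell by 2.07 on the log2 scale (SE 0.21, limma adjusted p = 0.000568). Commd10, between the 2 genes, had a difference of -0.073 ± 0.11 (SE), and the autophagy gene Atg12, on the other side, rose by 0.40 ± 0.10 (SE, limma adjusted p = 0.0412). Single arrays ended the calls of Atg12 in 8 of 12 cases and of Fbxo39 in 6, and ended neither that of Xaf1 nor that of Sema6a.

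Pcsk1n and Glod5 lie near each other on the X chromosome, with 3 measured genes between them. These were Eras, an oncogene-like GTPase of ESC, the deacetylase gene Hdac6 and the blood transcription factor Gata1. Their ESC differences were 0.26 ± 0.17, 0.21 ± 0.098 and 0.18 ± 0.11 (SE), with limma adjusted p from 0.254 to 0.446. So 2 of the 9 largest rises flanked genes that did not pass the test.

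The genes closest in pattern were found by centring each gene on its mean over the 12 arrays and taking the root-mean-square distance. Crtac1 and Calb2 were each other's nearest gene of all measured genes (0.29). Their 6 ESC arrays fell in a like order, with knockdown replicate 3 and control replicate 1 the highest of their groups. Pmel was nearest to Plxdc1 (0.23) and Acap1 (0.30), and was itself the nearest gene to Glod5 (0.32) and the second nearest to Slc13a5 (0.46) and Arl14epl (0.51). The nearest gene to Arl14epl was Plxdc1 (0.50) and to Slc13a5 Apod (0.44). Stac2 was nearest to Pcsk1n (0.21, ahead of Ypel2 at 0.21), and Serpinb1a, followed by Stac2, to Slfn9 (0.26 and 0.27) and Klk1 (0.32 and 0.33). Hal (0.33) and Atp1b2 (0.32) came second for Crtac1 and Calb2, and Acap1 (0.33) for Glod5. These distances are a description of the 12 arrays.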

How the data were processed

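RNA of 12 samples was measured on Affymetrix mouse gene arrays, 3 in each of 4 groups named by the sample titles. The deposited values are log2 expression of each probe set on each array. The tools affy, RMA and limma are named, without versions, per the submitters' processing notes. The build is not given in the sources. RMA compresses differences near the floor, there are no detection calls, and precision is limited by the array number. The 21212 probe sets comprise 18786 with 1 annotated gene symbol, 6 with several and 2420 unnamed here. Entrez IDs of 18775 matched the RefSeq gene table of GRCm38.p6, with 0 symbols changed, and its gene order gave the neighbours. The highest-mean probe set stood for a gene, giving 18784.

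Group means of the 12 arrays were modelled together using limma 3.58.1 (R 4.3.3), with 8 residual and 4.81 prior degrees of freedom. Adjusted p-values use Benjamini-Hochberg over 18784 genes, tests are two-sided and a gene rose or fell at an adjusted p under 0.05. Steps were tested on simulated data. The members and lists were chosen with earlier results of these data known. Named genes are the 9, Kdm5b, the 3 next rises, up to 3 relatives per list that passed, the 2 nearest in pattern, and the neighbours. The Klk1b extremes were named after their values were seen. Same-numbered arrays gave correlations of their deviations above 0.1 in all 3 pairs only between control ESC and control NPC, so no knockdown contrast within a state was treated as paired. Of the 10 marker lists, those other than pluripotent, germ cell and crest gave these counts in knockdown ESC, higher first. They were 1 and 3 of 12 neural, 0 and 4 of 14 neuronal and 1 and 0 of 10 endothelial markers. Further counts were 0 and 1 of 10 endoderm and 0 and 2 of 10 trophoblast markers. The rest were 0 and 0 of 8 blood and 0 and 0 of 2 measured 2-cell-like markers. In knockdown NPC 1 of 8 blood markers was lower, and the neural, neuronal, crest, endoderm, trophoblast and 2-cell-like lists gave 0 and 0. Alternatives were the replicate block, array weights, an intensity trend with robust prior, the filter, averaged probe sets, median centring, quantile normalization, a stricter threshold, adjustment over all probe sets, each state's 6 arrays alone and leaving out each array. The low-value filter kept 10636 genes above the array median on at least 3 arrays.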

Additional observations from a re-analysis of the deposited data

Results flagged for a closer look

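Slc24a5, listed with Pmel, was the only named relative whose knockdown effects differed between the states by limma's interaction term. It was named because it passed limma's test in ESC, and that same ESC difference enters the interaction term. The interaction p-values below are therefore a description and not independent evidence. The share of all genes that passed the interaction was not counted. Its levels were 5.40, 5.38 and 5.45 in knockdown NPC, against 5.52, 5.67 and 5.71 in control NPC. In ESC they were 5.71, 5.79 and 5.77 with the knockdown, against 5.46, 5.49 and 5.45 in control cells. The NPC effect minus the ESC effect was -0.52 ± 0.11 (SE, limma adjusted p = 0.0414). With the replicate number as a block the call was lost (limma adjusted p = 0.0590), and control arrays of ESC and NPC with the same number, which enter this difference, deviated together (correlations 0.27, 0.29 and 0.33). The groups did not overlap in either state and lay in opposite orders, at levels below the lower quartiles of the arrays. Without single arrays the call was lost in 10 of 12 cases, and over all settings the adjusted p ran from 0.0186 to 0.117.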

How the results depend on the processing

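The 9 genes gave 0 higher and 0 lower calls in NPC under every one of the 22 alternatives run, with limma adjusted p from 0.0789 upwards for Arl14epl. The low-value filter left only 7 of the 9 to test. A stricter threshold could add no call, and averaging probe sets left the levels of genes with 1 probe set as they were. The ESC differences of the 9 stayed positive under the alternatives run. Counts for relatives in ESC, 8 higher and 2 lower, became 5 and 2 with an intensity trend and robust prior, 5 and 2 adjusted over all probe sets, 1 and 0 at an adjusted p under 0.01, and 3 and 1 from the 6 ESC arrays alone. Array weights gave 12 and 4. Leaving out arrays gave 2 to 8 and 0 to 2. In NPC the relatives' 0 and 0 became 1 higher with low values filtered, and 1 lower with array weights, median centring or quantile normalization. Leaving out arrays gave 0 to 1 each way. For neighbours in ESC, 3 higher became 1 with the replicate block, 1 at the stricter threshold, 1 from the 6 ESC arrays alone and 5 with array weights, which gave 2 lower in place of 1. Leaving out arrays gave 1 to 3 higher and 1 lower, counts added after seeing the data. Over all genes in ESC, 346 higher and 633 lower became 1130 and 1757 with array weights, 58 and 143 at the stricter threshold, 175 and 325 from the 6 arrays alone, and 59 to 592 and 134 to 944 without single arrays. In NPC 154 and 40 became 50 and 14 at the stricter threshold, 25 and 4 from the 6 NPC arrays alone, 63 lower after median centring, and 59 to 189 and 17 to 108 without single arrays. The replicate block gave 339 higher and 626 lower in ESC, 144 and 30 in NPC and 6 and 2 for relatives in ESC. It ended the calls of Acacb, Necab2, Slc24a5, Atg12 and Fbxo39 (limma adjusted p 0.0534, 0.0643, 0.0618, 0.0598 and 0.0599). The causes were not tested. Levels near the floor limit what can be said of Klk1 and Slfn9, and of Glod5 in NPC.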
